A study of Mus musculus with 6 samples.

Results

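Matrix remodelling and invasion genes were followed in cultured B16-F1 cells, which derive from a melanoma of a C57BL/6J mouse. The set holds 10 genes, listed by symbol for their known roles, at a time when earlier results of these data were known. They are the proteases Mmp14 and Mmp2, the receptor Plaur, the inhibitors Timp1, Timp2 and Timp3, and the matrix genes Col4a1, Col4a2, Fn1 and Sparc. The array carried 25 probe sets for them among 45101, and 24 probe sets covering all 10 genes had a mean signal above the filter for dim probe sets (10.4 signal units), so that 1 Timp2 probe set was not tested. Each of 3 stable lines, carrying a lentiviral short hairpin RNA (shRNA) against macroH2A1, against macroH2A2 or, as the control, against GFP, was measured in 2 biological replicates on 6 one-colour arrays in all. Every line therefore carries a lentivirus and a hairpin, and a line made with another hairpin sequence was not analysed here. MacroH2A1 and macroH2A2 are variants of histone H2A with an added macro domain. Values are signal intensities scaled to a common array level by the authors, so the levels of different member probe sets are not compared with each other. Differences are in log2(signal + 16), tested with limma over 27025 probe sets, and p is two-sided with Benjamini-Hochberg adjustment over all of them.

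The probe set for Macroh2a1 read 444.2 and 319.1 with macroH2A1 shRNA, 1271.2 and 1170.5 with macroH2A2 shRNA and 1212.7 and 1262.4 in control cells. The Macroh2a2 probe set read 11.9 and 8.3 with macroH2A2 shRNA and 6.1 and 7.5 in control cells, which is below the filter, so the macroH2A2 label could not be checked on the array. All 7 melanocyte markers were above the filter, each at 1288.3 or more on every array. The summed signal of 10 fibroblast markers ranged from 215.5 to 217.3 with macroH2A1 shRNA, from 195 to 225.9 with macroH2A2 shRNA and from 182.6 to 292.4 in control cells. Of these markers 3 were above the filter, and none was at exactly 0. Among them Pdgfra read 32.5 and 24.4 with macroH2A1 shRNA, 25.6 and 25.2 with macroH2A2 shRNA and 82.9 and 52.4 in control cells, so that it was lower on all arrays of both macroH2A lines. Col1a2 ran the other way, with 79.8 and 68.3, then 63 and 62.1, against 52.8 and 46.1 in control cells, and Postn overlapped between the lines. No fibroblast marker exceeded 106.2 signal units, no endothelial marker exceeded 19 and no leukocyte marker exceeded 45.4. The part of other cells in the results below was not tested. The 6 arrays agree in their trimmed mean of 150.0, while their median signals run from 15.1 to 24.6, the highest on control replicate 1. No probe set of the whole array passed an adjusted p of 0.05 in any comparison, so the percentage of all tested probe sets called was 0. At an unadjusted p under 0.05, limma had 1189 probe sets (4.40%) for macroH2A1 shRNA against control, 1075 (3.98%) for macroH2A2 shRNA against control, 1217 (4.50%) for the mean of both lines and 739 (2.73%) for macroH2A2 shRNA against macroH2A1 shRNA. With the replicate number as a block the adjusted calls were 52 (0.192%), 39 (0.144%), 84 (0.311%) and 1 (0.00370%) in the same order. These counts changed when any 1 array was also left out, in fits with 1 residual degree of freedom. The part of a single array in them was not tested.

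Matrix breakdown at the cell surface rests on a small set of interacting proteins. MMP14 is a membrane-anchored metalloproteinase that cleaves collagen and activates pro-MMP2. That activation uses TIMP2 as the bridge between MMP14 and pro-MMP2, so that TIMP2 helps the reaction at low amounts and inhibits MMP14 at high amounts. The urokinase receptor, encoded by Plaur, concentrates plasminogen activation at the cell surface. Type IV collagen, made from Col4a1 and Col4a2 chains, is the network of basement membranes that invading melanoma cells have to cross.

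None of the 24 member probe sets passed the test in any of the 4 comparisons, with or without the replicate block. In macroH2A1 shRNA cells 11 probe sets were above and 13 below control, with a median log2 difference of -0.09, where 44.4% of all tested probe sets were above control and the median was -0.03. In macroH2A2 shRNA cells 15 were above and 9 below control, with a median of 0.11, where 44.3% of all probe sets were above and the median was -0.03. The 2 macroH2A1 shRNA arrays lay wholly above the 2 control arrays for 3 member probe sets (13.0% of all tested probe sets did so) and wholly below them for 2 (14.9% of all). The macroH2A2 shRNA arrays lay wholly above control for 7 (13.0% of all) and wholly below for 1 (16.2% of all). Probe sets of the same gene are counted singly here and are not independent. Of the 15 above control with macroH2A2 shRNA, 5 were of Timp2 and 3 of Mmp14. These counts are therefore not counts of genes. An unadjusted limma p under 0.05 was reached without the block by 3 member probe sets for macroH2A1 shRNA against control (4.40% of all tested). All were of Timp2, and for macroH2A2 shRNA against control 0 reached it (3.98% of all). Between the macroH2A lines 2 reached it without the block (2.73% of all). With the block more member probe sets reached it against control, all of Timp2 or Mmp14. The share of all probe sets was not counted with the block, so nothing is read from this. With 2 arrays against 2, an exact permutation test over samples cannot go below a p of 0.333, so only the fit across all probe sets was used.

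**Figure D1:**
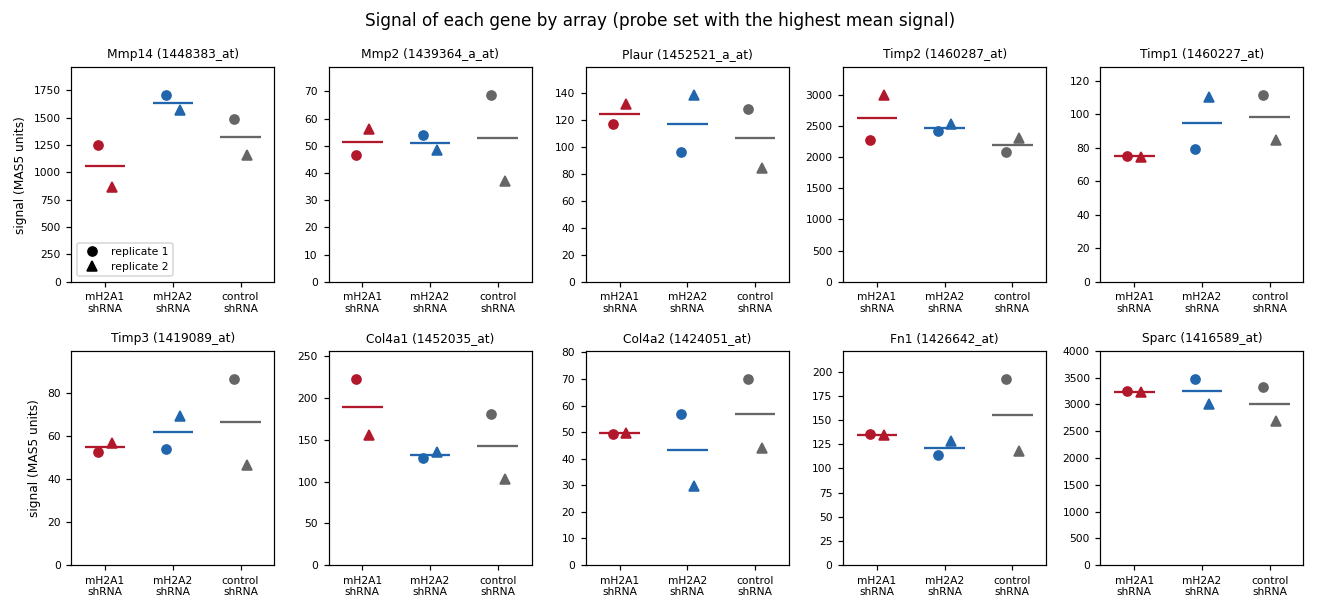
Signal of the brightest probe set of each of the 10 genes on every array (linear axis in signal units, scaled by the authors), with macroH2A1 (mH2A1) shRNA, macroH2A2 (mH2A2) shRNA and control from left to right, a symbol for each replicate and a line at the mean. Fn1, Timp3, Timp1, Col4a2 and Mmp2 are highest on control replicate 1, at 192.9, 86.5, 111.2, 70.1 and 68.5 signal units. The other genes are highest on another array.

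Among the members, the largest differences between the macroH2A lines were those of Mmp14. Its brightest probe set, 1448383_at, read 1701.9 and 1569.8 with macroH2A2 shRNA, 1251.2 and 867.7 with macroH2A1 shRNA and 1487.5 and 1158 in control cells. Both macroH2A2 shRNA arrays were above every other array, while the macroH2A1 shRNA arrays overlapped with control. Against control it differed by -0.33 ± 0.20 (SE, n = 2 arrays a line) with macroH2A1 shRNA and by 0.31 ± 0.20 with macroH2A2 shRNA, and neither passed the limma test. The other Mmp14 probe sets ran the same way. Probe set 1440920_at read 299 and 117.9 with macroH2A1 shRNA, 381.1 and 249.1 with macroH2A2 shRNA and 352.9 and 231.1 in control cells, and 1416572_at read 73.7 and 42.6, then 116.3 and 77.2, against 115.4 and 52.5 in control cells. All 3 were thus lower than control with macroH2A1 shRNA, by -0.33 to -0.56, and higher with macroH2A2 shRNA, by 0.10 to 0.31. For the dimmer pair these directions turned when 1 array was left out. For macroH2A1 shRNA, 1440920_at was at 0.06 without macroH2A1 shRNA replicate 2, and 1416572_at was at 0.08 without control replicate 1. For macroH2A2 shRNA they were at -0.19 without macroH2A2 shRNA replicate 1 and at -0.24 without control replicate 2. Probe set 1440920_at was lowest on macroH2A1 shRNA replicate 2.

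The Mmp14 sequence is shown because this gene gave that difference. It covers 250 bases before the annotated start, from RefSeq, chr14:54431348-54431597 of build GRCm38.p6 on the plus strand, with the GC box GGGCGG in capitals. The 2 boxes stand end to end. The GC box, the letters bound by SP1-type factors, was searched on both strands and is found in 35.7% of all 32851 promoter windows of 300 bases.
Mmp14: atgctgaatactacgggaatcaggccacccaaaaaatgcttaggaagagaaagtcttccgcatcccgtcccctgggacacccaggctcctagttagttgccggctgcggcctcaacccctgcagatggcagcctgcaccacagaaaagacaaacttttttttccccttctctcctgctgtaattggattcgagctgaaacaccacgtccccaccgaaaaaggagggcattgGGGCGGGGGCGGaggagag

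Compared directly, the macroH2A2 shRNA line was above the macroH2A1 shRNA line in Mmp14 by 0.64 (95% interval 0.19 to 1.10) for 1448383_at, by 0.66 (-0.27 to 1.59) for 1440920_at and by 0.62 (-0.22 to 1.45) for 1416572_at. The first of these had a limma p of 0.0117 and an adjusted p of 1 (0.221 with the replicate block), and within the replicate sets it stood at 0.44 in set 1 and 0.84 in set 2. It was past the threshold in 1 setting, with the block and without macroH2A2 shRNA replicate 1, at 0.80 and an adjusted p of 0.0153, where 0.392% of all probe sets passed. That fit has 1 residual degree of freedom, and its lone macroH2A2 shRNA array is assumed to vary like the other groups, so the pass is no support for the difference. Without macroH2A2 shRNA replicate 2, with the block, 0.755% of all probe sets passed and no member did. The intervals above are from the fit without the block. With the block and all arrays, 1440920_at and 1416572_at had SE of 0.19 and 0.18 and limma adjusted p values of 0.505 and 0.534. Of all 24 member probe sets, the macroH2A2 shRNA arrays lay wholly above the macroH2A1 shRNA arrays for 4 (13.3% of all tested) and wholly below for 5 (14.6% of all). Here too, probe sets of the same gene are counted singly.

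Mmp2, the gelatinase that MMP14 activates, overlapped between all lines. Probe set 1439364_a_at read 46.5 and 56 with macroH2A1 shRNA, 53.9 and 48.4 with macroH2A2 shRNA and 68.5 and 36.9 in control cells. The control replicates enclosed the 4 other values. The difference from control was 0.0048 (95% interval -0.61 to 0.62) with macroH2A1 shRNA and 0.0051 (-0.61 to 0.62) with macroH2A2 shRNA. Probe set 1416136_at read 35.5 and 27.9, then 49.2 and 27.6, against 36.4 and 29.8 in control cells, and its differences of -0.04 and 0.12 were also within the spread. Plaur, read by 1452521_a_at, stood at 117 and 131.7 with macroH2A1 shRNA, 96.1 and 138 with macroH2A2 shRNA and 127.9 and 84.6 in control cells. Its differences were 0.22 (-0.35 to 0.79) and 0.13 (-0.44 to 0.70), with opposite signs in the 2 replicate sets for both lines.

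Timp2 was the member with the smallest limma p values without the block. With the block, Mmp14 1448383_at had the smallest, a limma p of 0.000418 between the macroH2A lines. Timp2 1454677_at followed at 0.000786 with macroH2A1 shRNA, and neither passed after adjustment. TIMP2 inhibits MMP2 and MMP14 and, as above, also takes part in pro-MMP2 activation. Probe set 1454677_at read 1312.4 and 1461.8 with macroH2A1 shRNA, 1179.7 and 1078.9 with macroH2A2 shRNA and 979.1 and 850.6 in control cells. All arrays of both lines were above both control arrays. The difference was 0.59 ± 0.14 (limma p 0.00238, adjusted p 0.743) with macroH2A1 shRNA and 0.30 ± 0.14 (limma p 0.0567, adjusted p 1) with macroH2A2 shRNA. Within replicate sets the first was 0.42 in set 1 and 0.77 in set 2. Probe set 1433662_s_at read 1240.9 and 1305.6, then 1003.7 and 984.6, against 949.9 and 766.6 in control cells, with differences of 0.57 and 0.22. Probe set 1450040_at read 284.9 and 352.1, then 268.6 and 198, against 180.8 and 211.7 in control cells, with differences of 0.65 and 0.22.

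In the macroH2A1 shRNA line the remaining tested Timp2 probe sets differed less from control and overlapped with it. With macroH2A2 shRNA these probe sets lay wholly above control, while 1450040_at overlapped with it. Probe set 1460287_at read 2270 and 2987.4 with macroH2A1 shRNA, 2409.6 and 2533.7 with macroH2A2 shRNA and 2077.2 and 2302 in control cells, and 1420924_at read 67.2 and 93.8, then 74.7 and 74.1, against 69.7 and 48 in control cells. The 5 tested probe sets were thus all above control in both lines, by 0.25 to 0.65 with macroH2A1 shRNA and by 0.18 to 0.30 with macroH2A2 shRNA. With macroH2A2 shRNA, 1450040_at and 1420924_at were as low as -0.11 and -0.02 in a fit without 1 array. They are probes of 1 gene on the same arrays and not 5 independent measurements. The sixth, 1437081_at, was below the filter. With the replicate block, 1454677_at, 1433662_s_at and 1450040_at had adjusted p values of 0.122, 0.151 and 0.268 for macroH2A1 shRNA, and they passed when macroH2A2 shRNA replicate 1 or 2 was also left out, with adjusted p from 0.0101 to 0.0165. In these settings 1.91% and 1.90% of all tested probe sets passed. Such fits also have 1 residual degree of freedom and are given as settings, not as support for Timp2.

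The Timp2 sequence covers the 250 bases before its start, from RefSeq, chr11:118355412-118355661 of GRCm38.p6 on the minus strand, with the GC box in capitals.
Timp2: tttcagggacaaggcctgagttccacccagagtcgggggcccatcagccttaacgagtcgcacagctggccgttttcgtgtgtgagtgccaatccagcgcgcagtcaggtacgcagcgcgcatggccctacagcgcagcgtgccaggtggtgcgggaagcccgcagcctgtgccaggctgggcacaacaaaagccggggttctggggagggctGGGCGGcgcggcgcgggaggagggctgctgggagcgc

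**Figure D2:**
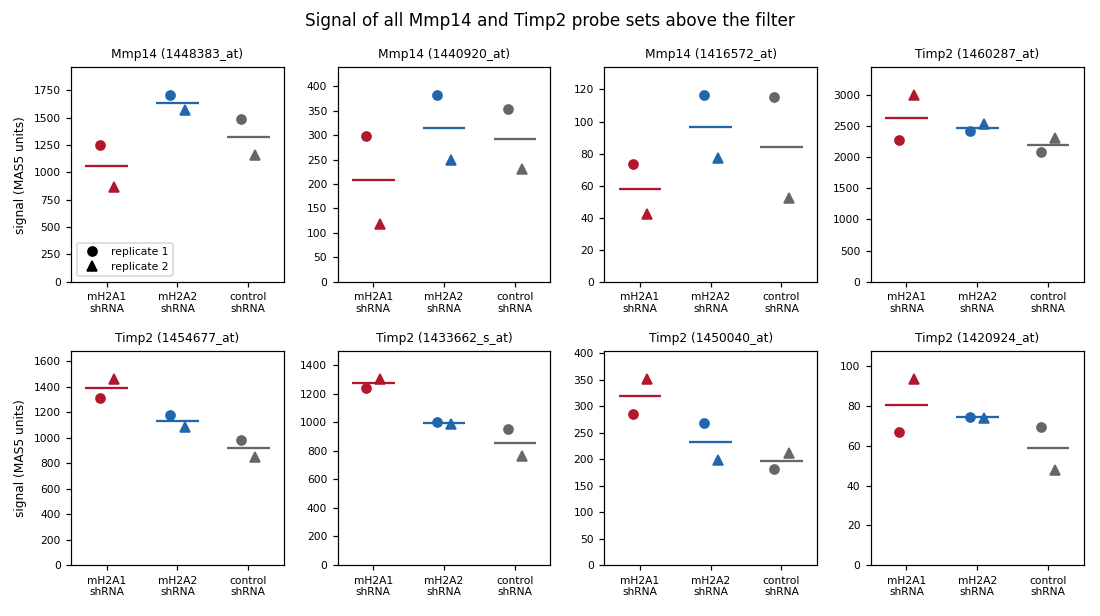
Signal of the 3 Mmp14 and 5 tested Timp2 probe sets on each of the 6 arrays (linear axes in signal units), with macroH2A1 (mH2A1) shRNA, macroH2A2 (mH2A2) shRNA and control from left to right, a symbol for each replicate and a line at the mean. The Timp2 probe set 1454677_at sits at 1078.9 or higher in both macroH2A lines and at 979.1 or lower in control cells.

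Timp1 and Timp3 encode the other inhibitors measured, of which TIMP3 is bound to the extracellular matrix. Timp1, read by 1460227_at, stood at 75 and 74.7 with macroH2A1 shRNA, 79.3 and 110.3 with macroH2A2 shRNA and 111.2 and 84.9 in control cells. The macroH2A1 shRNA arrays lay below both control arrays and the macroH2A2 shRNA arrays overlapped with them. The differences were -0.32 (95% interval -0.83 to 0.20) and -0.05 (-0.56 to 0.47). For Timp3, 1449335_at read 52.9 and 61.3, then 50.3 and 53.3, against 78.1 and 66 in control cells, below control in all arrays of both lines, with differences of -0.27 (-0.74 to 0.20) and -0.37 (-0.84 to 0.09). Another Timp3 probe set, 1419089_at, read 52.6 and 56.7, then 54 and 69.2, against 86.5 and 46.6 in control cells, so the groups overlapped. The last pair, 1449334_at and 1419088_at, had signals of 26.2 or less on every array. Their differences from control were -0.41 and -0.38 for 1449334_at and -0.19 and 0.06 for 1419088_at. With macroH2A2 shRNA, 1419088_at lay just above both control arrays, at 16.2 and 16.2 against 14.2 and 15.5.

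The type IV collagen genes Col4a1 and Col4a2 lie head to head and share a promoter. In the RefSeq promoter windows their starts are 21 bases apart on chromosome 8. Col4a1 starts on the minus strand at 11312826 and Col4a2 on the plus strand at 11312805. The RefSeq gene record of Col4a1 reaches further, to 11312889, which is beyond the stretch printed below. Col4a1, read by 1452035_at, stood at 128.6 and 135.7 with macroH2A2 shRNA, 223.2 and 155.6 with macroH2A1 shRNA and 180.9 and 103.3 in control cells. The macroH2A2 shRNA arrays were below both macroH2A1 shRNA arrays, by -0.45 (95% interval -1.08 to 0.18, limma adjusted p 1), while both lines overlapped with control at -0.05 and 0.40. Its other probe set, 1426348_at, was at 33.3 or less on every array and stood the other way between the macroH2A lines, at 0.23. Col4a2, read by 1424051_at, stood at 57 and 29.7 with macroH2A2 shRNA, 49.4 and 49.6 with macroH2A1 shRNA and 70.1 and 43.9 in control cells, with differences from control of -0.31 and -0.13, and all groups overlapped. The stretch around the 2 window starts is chr8:11312777-11312854 of GRCm38.p6 on the plus strand. It is shown with the GC box in capitals because both promoter windows hold it.
Col4a1/Col4a2: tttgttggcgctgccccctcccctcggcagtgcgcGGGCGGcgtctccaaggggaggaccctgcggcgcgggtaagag

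A promoter window in RefSeq was matched for 8 of the 10 members, all but Mmp2 and Fn1. A GC box (in 35.7% of all windows) was present in 7 of the 8. The only GC box of the Col4a1 window is the one printed above, which is also in the Col4a2 window, so 1 site counts for both genes. The CCAAT box (CCAAT, in 37.4% of all windows) was in 5 and the AP-1 site (TGANTCA, in 7.81% of all windows) in 1, Plaur. These are matches of letters and not measured binding sites.

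Fn1, which encodes fibronectin, read 135.4 and 134.4 with macroH2A1 shRNA, 113.6 and 128.5 with macroH2A2 shRNA and 192.9 and 117.8 in control cells with 1426642_at. The macroH2A arrays all lay below control replicate 1, and control replicate 2 lay among them. The differences were -0.15 (95% interval -0.69 to 0.40) and -0.29 (-0.83 to 0.25). The other tested Fn1 probe set, 1437218_at, was dim, at 24.9 or less on every array. Its differences were -0.32 and -0.33, and both lines overlapped with control. Sparc encodes osteonectin, a matricellular glycoprotein made in quantity by melanoma cells. Its probe set 1416589_at read 3252.8 and 3228.5, then 3481.1 and 3007, against 3322.6 and 2681.3 in control cells, and 1448392_at read 1274.5 and 1537.1, then 1431.7 and 1327, against 1278.1 and 1231.3 in control cells. Both were slightly above control in each line (0.12 and 0.16 with macroH2A1 shRNA, 0.12 and 0.13 with macroH2A2 shRNA), with 95% intervals from -0.20 to 0.47. The third, dim probe set, 1458204_at, ran the other way at -0.25 and -0.28, with 13.8 and 13.5, then 11.7 and 14.4, against 28.7 and 11.8 in control cells.

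**Figure D3:**
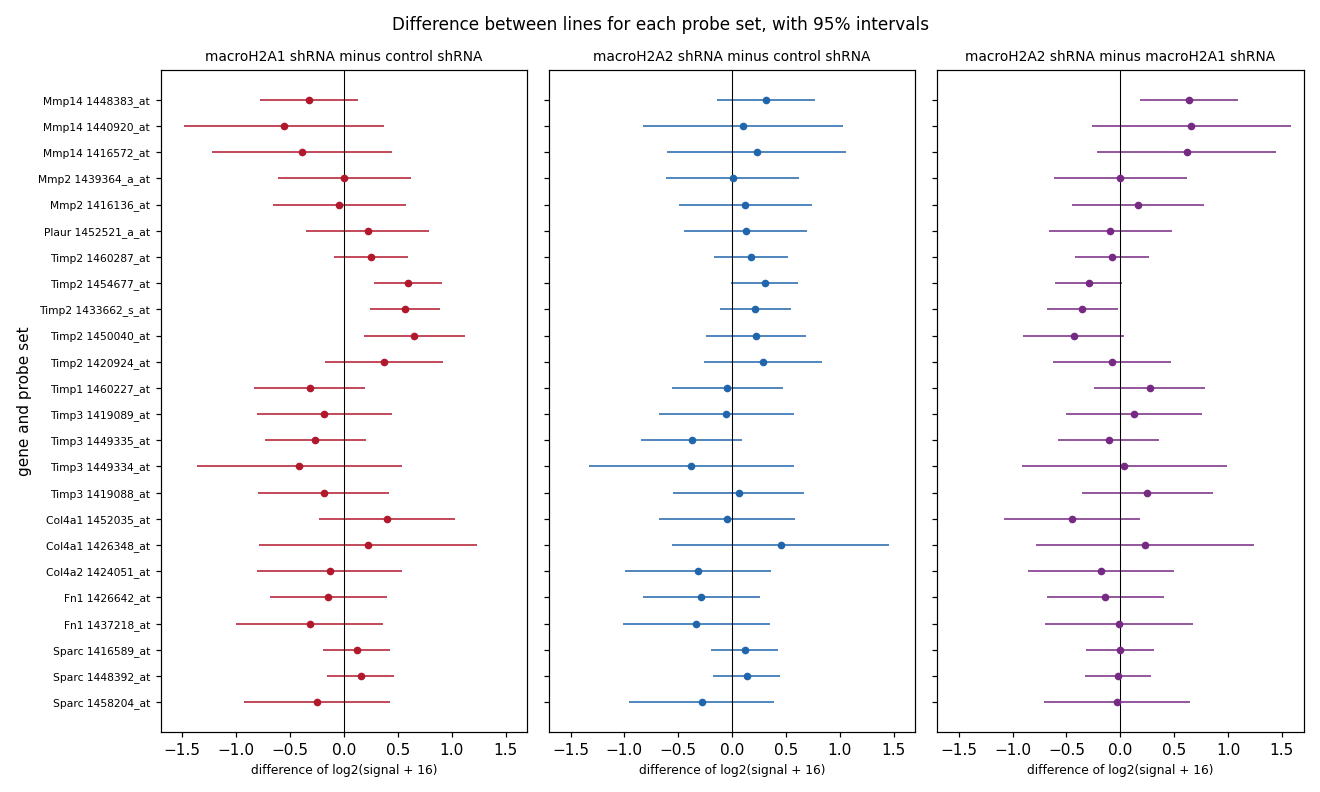
Difference in log2(signal + 16) of each of the 24 tested member probe sets (points) with the 95% interval of the limma fit (bars), with 1 panel for each macroH2A line less control and, at the right, 1 for macroH2A2 less macroH2A1 shRNA. Against control, Timp2 lies to the right of 0 in both lines, and Mmp14 lies left of 0 with macroH2A1 shRNA and right of it with macroH2A2 shRNA.

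The control replicates differed in these genes mostly in 1 direction. Of the 24 tested member probe sets, 11 were higher in replicate 1 with macroH2A1 shRNA (median difference between the replicates -0.04), 15 with macroH2A2 shRNA (median 0.11) and 20 in control cells (median 0.39). Over all tested probe sets, 56.2% were higher in replicate 1 with macroH2A1 shRNA (median 0.05) and 53.7% with macroH2A2 shRNA (median 0.03). In the control line 62.7% were, and the median was 0.11. The part of the difference between the control replicates in the results was not tested beyond the block and the values without an array.

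**Figure D4:**
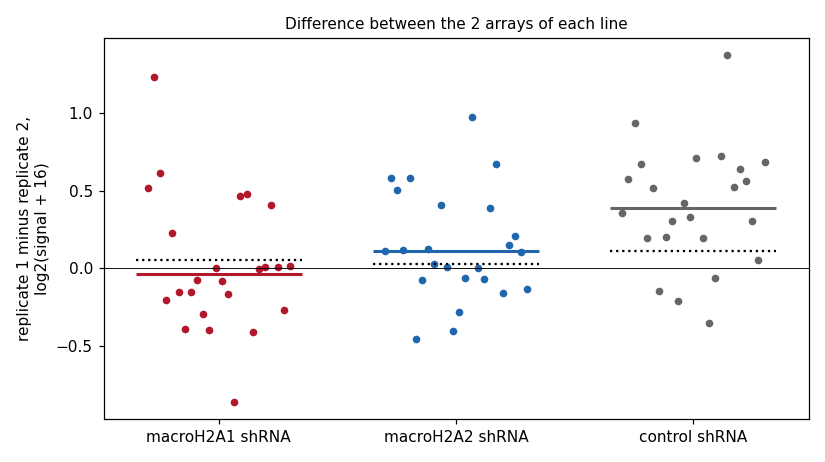
Difference between replicate 1 and replicate 2 in log2(signal + 16) for each tested member probe set, by line, with macroH2A1 shRNA, macroH2A2 shRNA and control from left to right, a solid line at the members' median and a dotted line at the median of all tested probe sets. Of 24 points a line, 11 are above 0 with macroH2A1 shRNA, 15 with macroH2A2 shRNA and 20 in control cells.

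Other genes of the same pathways, in 7 lists chosen for their roles, were read with the brightest probe set of each gene. None passed the test without the block. Over all tested probe sets 44.4% were above control with macroH2A1 shRNA and 44.3% with macroH2A2 shRNA, and both medians were -0.03. Both lines are set against the same 2 control arrays, so the counts of a list in the 2 lines are not independent. Of 10 metalloproteinases and regulators of gelatinase activation, 1 was above and 9 below control with macroH2A1 shRNA (median -0.17) and 3 above and 7 below with macroH2A2 shRNA (median -0.17). The 6 genes of plasminogen activation stood at 2 above and 4 below (median -0.08) and 4 above and 2 below (median 0.02). Over all 10 tested probe sets of these genes the macroH2A2 shRNA median turned to -0.13, with 5 above control. The 14 ADAM and ADAMTS proteases stood at 5 above and 9 below (-0.08) and 2 above and 12 below (-0.19). The 13 other basement membrane genes had 3 above and 10 below (-0.17) and 4 above and 9 below (-0.20). The 12 interstitial matrix genes had 5 above and 7 below (-0.09) and 2 above and 10 below (-0.40), the last at -0.24 over all their 23 probe sets. The 11 matricellular genes had 6 above and 5 below in both lines (0.0017 and 0.10), and over all their 17 probe sets the macroH2A1 shRNA median turned to -0.14, with 8 above control. The 17 collagen processing genes had 6 above and 11 below in both (-0.04 and -0.05). Some list genes were high on control replicate 1, such as Col5a1 (205.4, against 88.2 on replicate 2) and Plod2 (1012.5 against 505.3). Nid1 was the other way (203.7 against 299.7). With macroH2A2 shRNA, Plod2 differed from control by -1.49 in replicate set 1 and by 0.01 in set 2. The part of control replicate 1 in the list counts was not tested.

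Of the list genes with the smallest p, those below were picked after their values were seen. Sparcl1, a SPARC-like matricellular gene, read 1257.2 and 1087.1 with macroH2A2 shRNA and 742.1 and 595.2 in control cells, with 865.4 and 841.7 in the macroH2A1 shRNA line. Its difference with macroH2A2 shRNA was 0.80 ± 0.15 (limma adjusted p 0.646), and with the replicate block it passed at an adjusted p of 0.0462, which was as high as 0.169 when 1 array was left out as well. Fstl1, a secreted relative of SPARC, read 174.2 and 191 with macroH2A1 shRNA, 181.8 and 240.3 with macroH2A2 shRNA and 436.4 and 328.1 in control cells, below both control arrays in both lines by -0.99 and -0.81. Nid1, which links laminin to type IV collagen, read 144.6 and 112.1 with macroH2A1 shRNA and 203.7 and 299.7 in control cells, at -0.88. Fbln5, an elastic fibre gene, read 800.9 and 997.4 with macroH2A2 shRNA, 1406.4 and 1689.7 with macroH2A1 shRNA and 1355.1 and 1129.2 in control cells, at -0.46 with macroH2A2 shRNA and 0.31 with macroH2A1 shRNA. Adamts1, a metalloproteinase that cleaves proteoglycans, read 1053.5 and 1154.9 with macroH2A1 shRNA and 1423.1 and 1436.8 in control cells, at -0.37. The collagen hydroxylase gene P4ha2 was high on control replicate 1 (458.2, against 237.5 on replicate 2), and its difference with macroH2A2 shRNA was -1.77 in replicate set 1 and -0.08 in set 2.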

How the data were processed

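RNA of 6 cultures was measured on one-colour Affymetrix arrays. Each probe set has 1 deposited signal intensity (linear, not log), which the authors computed with MAS5 per the submitters' processing notes. Their 2% trimmed mean was 150.0 on every array, so the authors' scaling removes any change in total signal. Its version and a genome build are not given in the sources used here. Groups and replicate numbers come from the labels. Of 45101 probe sets, 64 controls were left out, 34945 carried 1 gene symbol in the platform annotation, 932 several and 9160 none. All 10 member symbols matched a current gene record.

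Signals were analysed as log2(signal + 16), which understates differences of dim probe sets. Probe sets with a mean at or above the 40th percentile (10.4) entered 1 limma fit (limma 3.58.1, R 4.3.3) of 3 group means, with 3 residual and 4.90 prior degrees of freedom, and an adjusted p of 0.05 as the threshold. On simulated data the fit recovered the size of the changes put in, but called none of the smaller ones, so a lack of calls here does not show a lack of change. The named genes are all member probe sets, the hairpin targets and, per list and comparison with control, up to 3 genes of smallest p, some of which are given. Beyond this rule, the closing ranges also take such genes from macroH2A2 shRNA against macroH2A1 shRNA (Mmp24 among them). The members and lists were chosen with earlier results of these data known.

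The replicate 1 minus replicate 2 differences correlated between lines at 0.415, 0.576 and 0.372, above 0.1 in every pair, so the numbers pair the samples by the data, although the labels do not say why. The replicate block (2 residual degrees of freedom) changed the calls given beside the results. Alternatives were the block, pseudocounts of 1 and 64, filters of 0 and 60 percentiles, quantile normalization, median centring and leaving out each array. The number of arrays limits the precision, and the lists were also read over all probe sets of each gene.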

Additional observations from a re-analysis of the deposited data

Results flagged for a closer look

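Values of 2 probe sets were singled out because every array of one macroH2A line lay on the opposite side of the control mean from every array of the other. For Mmp14 (1448383_at) the difference between macroH2A2 shRNA and macroH2A1 shRNA was 0.64, with an adjusted limma p of 1 and 0.221 with the replicate block. For Col4a1 (1452035_at) it was -0.45, with an adjusted p of 1 and 0.780 with the block, while the other tested Col4a1 probe set (1426348_at) stood at 0.23. Neither test of the difference passed the threshold.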

How the results depend on the processing

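Counts of probe sets past the threshold were 0 in all 4 comparisons as reported and, without the block, with each array left out. With the replicate block they were 52, 39, 84 and 1, and with median centring 3 for macroH2A1 shRNA and 9 for the mean of both lines. With the block and 1 array left out they ran from 26 to 515, 3 to 804, 19 to 867 and 3 to 204, in fits with 1 residual degree of freedom. The lowest came without macroH2A1 shRNA replicate 2 (26 and the last 3) and without control replicate 1 (3 and 19), and the highest without a macroH2A2 shRNA array. Over 19 other settings, 34 of 96 member values kept their sign and 62 did not, all of them within 0.56 of 0 as reported. No member passed in a setting without the block. Ranges below cover the fits without 1 array, with and without the block, for each probe set whose sign turned in 1 or more of them. The cause was not tested.

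For macroH2A1 shRNA minus control the ranges were Mmp14 1440920_at -1.17 to 0.061, Mmp14 1416572_at -0.86 to 0.082, Mmp2 1439364_a_at -0.35 to 0.36, Mmp2 1416136_at -0.16 to 0.072, Plaur 1452521_a_at -0.19 to 0.63, Timp3 1419089_at -0.63 to 0.27. Further ranges were Timp3 1449334_at -1.0 to 0.17, Timp3 1419088_at -0.44 to 0.059, Col4a1 1426348_at -0.47 to 0.91, Col4a2 1424051_at -0.43 to 0.17, Fn1 1426642_at -0.51 to 0.21, Sparc 1416589_at -0.036 to 0.27. Further ranges were Sparc 1448392_at -0.018 to 0.33, Sparc 1458204_at -0.62 to 0.12, Mmp11 1417234_at -0.92 to 0.067, Bsg 1456616_a_at -0.65 to 0.13, Plgrkt 1460361_at -0.31 to 0.026, Plat 1415806_at -0.76 to 0.12. The sign also turned with a pseudocount of 64 for Mmp2 1439364_a_at -0.0059, quantile normalization for Mmp2 1416136_at 0.036, median centring for Mmp2 1416136_at 0.025.

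For macroH2A2 shRNA minus control the ranges were Mmp14 1440920_at -0.19 to 0.40, Mmp14 1416572_at -0.24 to 0.70, Mmp2 1439364_a_at -0.35 to 0.36, Mmp2 1416136_at -0.17 to 0.41, Plaur 1452521_a_at -0.28 to 0.54, Timp2 1450040_at -0.11 to 0.55. Further ranges were Timp2 1420924_at -0.021 to 0.60, Timp1 1460227_at -0.33 to 0.24, Timp3 1419089_at -0.50 to 0.39, Timp3 1449334_at -1.17 to 0.41, Timp3 1419088_at -0.085 to 0.21, Col4a1 1452035_at -0.41 to 0.31. Further ranges were Col4a1 1426348_at -0.24 to 1.14, Col4a2 1424051_at -0.65 to 0.024, Fn1 1426642_at -0.65 to 0.069, Sparc 1416589_at -0.038 to 0.27, Sparc 1458204_at -0.65 to 0.092, Lrp1 1448655_at -1.02 to 0.032. The sign also turned with a pseudocount of 64 for Mmp2 1439364_a_at -0.0064, quantile normalization for Timp1 1460227_at 0.0057, median centring for Timp1 1460227_at 0.025 and Timp3 1419089_at 0.019 and Col4a1 1452035_at 0.022.

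For the mean of both lines minus control the ranges were Mmp14 1448383_at -0.19 to 0.17, Mmp14 1440920_at -0.53 to 0.083, Mmp14 1416572_at -0.55 to 0.39, Mmp2 1439364_a_at -0.35 to 0.36, Mmp2 1416136_at -0.11 to 0.18, Plaur 1452521_a_at -0.24 to 0.58. Further ranges were Timp1 1460227_at -0.45 to 0.085, Timp3 1419089_at -0.56 to 0.33, Timp3 1419088_at -0.21 to 0.083, Col4a1 1452035_at -0.18 to 0.54, Col4a1 1426348_at -0.36 to 1.03, Col4a2 1424051_at -0.49 to 0.038. Further ranges were Fn1 1426642_at -0.58 to 0.14, Sparc 1416589_at -0.037 to 0.27, Sparc 1458204_at -0.64 to 0.11. The sign also turned with median centring for Mmp14 1448383_at 0.062 and Timp3 1419088_at 0.0061, a pseudocount of 64 for Mmp2 1439364_a_at -0.0061.

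For macroH2A2 shRNA minus macroH2A1 shRNA the ranges were Mmp2 1439364_a_at -0.30 to 0.30, Mmp2 1416136_at -0.13 to 0.46, Plaur 1452521_a_at -0.41 to 0.23, Timp2 1460287_at -0.27 to 0.12, Timp2 1420924_at -0.39 to 0.23, Timp1 1460227_at -0.016 to 0.56. Further ranges were Timp3 1419089_at -0.17 to 0.43, Timp3 1449335_at -0.22 to 0.010, Timp3 1449334_at -0.75 to 0.83, Col4a1 1426348_at -0.42 to 0.87, Col4a2 1424051_at -0.52 to 0.16, Fn1 1426642_at -0.38 to 0.10. Further ranges were Fn1 1437218_at -0.22 to 0.19, Sparc 1416589_at -0.13 to 0.12, Sparc 1448392_at -0.20 to 0.15, Sparc 1458204_at -0.27 to 0.21, Mmp24 1448806_at -0.092 to 0.69. The sign also turned with a pseudocount of 64 for Mmp2 1439364_a_at -0.00044, quantile normalization for Timp3 1449334_at -0.022 and Fn1 1437218_at 0.0050 and Sparc 1416589_at 0.024, a pseudocount of 1 for Fn1 1437218_at 0.011, median centring for Sparc 1416589_at 0.0016.

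Read over all probe sets of each gene, list medians turned sign for plasminogen activation with macroH2A2 shRNA (-0.13) and for matricellular genes with macroH2A1 shRNA (-0.14). The 63 values of list genes tried in these settings were picked for the smallest p in each list and comparison of the same data. Passes among them therefore give no share for the lists. With all arrays only Sparcl1 with macroH2A2 shRNA passed, with the replicate block, where 0.144% of all tested probe sets passed. Other passes also needed the block and came only with an array left out, in fits with 1 residual degree of freedom. Nothing is read from those. Signal over background limits the dim probe sets, whose differences shrink with the pseudocount.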
